A study of Rattus norvegicus with 13 samples.

Results

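Ventral skin-derived precursors (SKPs) of adult Sprague Dawley rats were compared with mesenchymal stromal cells (MSCs) on Affymetrix Rat Gene 1.0 ST arrays, which measure transcripts along their whole length. The comparison rests on 7 of the 13 arrays of the series, chosen by their titles: 3 arrays of ventral trunk SKPs and 4 of MSCs, each from an isolate that the design text calls independent. The remaining 6 arrays, 3 of dorsal trunk SKPs and 3 of facial SKPs, showed which differences from MSCs ventral SKPs had and the other SKPs did not. All cells came from the same outbred strain and had been passaged 2 times. No treatment or genetic change was given for any group, and the tissue that the MSCs were taken from is not given in the sources used here.

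SKPs are dermal cells that grow as spheres in culture and are studied for their neural crest-like properties, among them the capacity to give neural as well as mesenchymal progeny. The dermis they come from has several embryonic sources: the ventral trunk dermis derives largely from lateral plate mesoderm, the dorsal dermis from somites and the facial dermis from the neural crest. MSCs are plate-adherent stromal cells that can form bone, cartilage and fat in culture and that carry abundant contractile and matrix transcripts. The series title asks whether a precursor with the same properties forms from skin of these different origins.

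The values are levels on a log2 scale, so that a difference of 1 is a 2-fold change. Of 29215 probe sets, 15310 had exactly 1 gene symbol, and with the probe set of the highest mean kept for each gene these gave 14506 genes. Medians of the 13 arrays lay between 4.91 and 5.01. Across genes, which are not independent replicates, ventral arrays correlated with each other at 0.994 to 0.995, with dorsal arrays at 0.956 to 0.983, with facial arrays at 0.958 to 0.979 and with MSC arrays at 0.928 to 0.946. The median SD of a gene within a group was 0.117 for ventral SKPs, 0.202 for dorsal SKPs, 0.151 for facial SKPs and 0.186 for MSCs. Dorsal array 3 stood apart, with 0.960 and 0.969 to dorsal arrays 1 and 2 against 0.988 between these. MSC array 1 correlated at 0.993 with MSC array 2, and array 3 at 0.987 with array 4, while other MSC combinations gave 0.969 to 0.979. A level was taken as above background where it exceeded the 90th percentile of 1105 olfactory receptor genes, which was 3.48 for ventral SKPs, 3.59 for dorsal SKPs, 3.55 for facial SKPs and 3.59 for MSCs. The number of arrays limits the precision of every value.

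The labelled identity of ventral SKPs was checked against SKP markers. Crabp1, a retinoic acid binding protein of dermal papilla cells, was at 12.62, 12.77 and 12.65 in the ventral arrays, against 9.32, 8.04, 6.56 and 6.23 in the MSC arrays (difference 5.14, limma adjusted p = 0.000997). Sox2, a transcription factor of neural and dermal papilla precursors, was at 6.66, 7.51 and 7.06 in ventral SKPs, against 5.70, 5.19, 4.98 and 5.21 in MSCs (difference 1.81, adjusted p = 0.00123). Neither gene overlapped between the groups. Twist1, a mesenchymal transcription factor, was also higher in ventral SKPs (difference 1.61, adjusted p = 0.00707, and 0.98 without MSC arrays 3 and 4 together, adjusted p = 0.0406). The matrix proteoglycan gene Vcan did not pass the test (difference 0.51, adjusted p = 0.384). Snai2 was called in the other direction (difference -1.39, adjusted p = 0.045), a call lost in 10 of 13 fits that left out 1 array (all but those without dorsal array 2 or 3 or MSC array 1), with an adjusted p of up to 0.15. Among the stromal surface markers, Cd44 was at 9.25 to 9.69 in ventral SKPs and 9.06 to 9.70 in MSCs, and Thy1 at 11.14 to 11.52 in ventral SKPs and 11.74 to 12.40 in MSCs. Neither of these passed the test. The Thy1 levels did not overlap, and in the fit of ventral SKPs and MSCs alone Thy1 was called lower (-0.60, adjusted p = 0.0441). Of the 15 measured stromal surface markers, 2 others were called against MSCs, both higher in ventral SKPs. Ptprc, the pan-leukocyte antigen, was at 4.43 to 5.30 in ventral SKPs and 3.37 to 4.09 in MSCs. It did not pass the test in the fit of all arrays (adjusted p = 0.378). In the fit of ventral SKPs and MSCs alone it was called higher in ventral SKPs (1.25, adjusted p = 0.00908).

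Between ventral SKPs and MSCs, limma called 3545 genes (Benjamini-Hochberg adjusted p below 0.05). Of the genes tested, 1891 were higher in ventral SKPs (13%) and 1654 were lower (11.4%). At least 2-fold differences among them numbered 751 higher and 637 lower. The median difference over all genes was -0.04. The shares of 13% higher and 11.4% lower are the background for the counts of list members called against MSCs below. Without ventral array 3 the genes called lower numbered 1091.

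The genes with the largest increases coded for matrix enzymes, secreted proteins and a carbonic anhydrase. Collagenase 3 (Mmp13) was 8.49 higher (SE 0.53, adjusted p = 9.41e-07), decorin (Dcn), which binds collagen fibrils, 8.15 higher (SE 0.75, adjusted p = 1.61e-05), and the stromelysin Mmp10 7.23 higher (SE 0.30, adjusted p = 6.58e-08). These 3 genes were also called in dorsal and facial SKPs against MSCs, and none of them differed by the test between ventral and dorsal or ventral and facial SKPs. Among the 10 genes with the largest increases, 4 stood apart from the other SKPs too: carbonic anhydrase 2 (Car2), the lysophospholipase Enpp2 (autotaxin), the transporter gene Slc43a3 and the secreted Wnt antagonist Frzb. Enpp2 was at 9.66, 10.35 and 10.22 in ventral SKPs, 5.96 to 8.57 in dorsal SKPs, 6.54 to 7.47 in facial SKPs and 3.19 to 3.61 in MSCs. Its difference from dorsal SKPs (2.45) lost its call without any 1 of the ventral arrays, with an adjusted p of up to 0.0828. The call of Slc43a3 against dorsal SKPs (1.35) was lost in 12 of 13 such fits, all but that without dorsal array 1 (adjusted p up to 0.159). Cpxm1, a secreted carboxypeptidase relative, was at 11.26, 10.10 and 11.51 in ventral SKPs, 4.55 to 7.53 in dorsal SKPs, 7.16 to 10.54 in facial SKPs and 3.89 to 4.57 in MSCs. It was higher in ventral SKPs than in MSCs (6.57, adjusted p = 0.000104) and than in dorsal SKPs (4.69, adjusted p = 0.0087). On the lower side stood the actin-binding protein transgelin (Tagln), at 4.91, 4.33 and 4.31 in ventral SKPs, against 11.70, 11.76, 12.73 and 12.85 in MSCs (difference -7.75, SE 0.36, adjusted p = 1.03e-07). The collagen receptor subunit Itga11 (-5.93), the cartilage proteoglycan aggrecan (Acan, -5.88) and the LIM protein Fhl1 (-5.73) followed it. No gene among these 4 differed by the test between ventral SKPs and the other SKP groups.

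Ventral SKPs were then set against the other SKPs. The difference between ventral and dorsal SKPs is at once the difference between their changes from MSCs, since the MSC arrays cancel. By this test 545 genes were higher (3.76%) and 341 lower (2.35%) in ventral than in dorsal SKPs, and 632 were higher (4.36%) and 326 lower (2.25%) in ventral than in facial SKPs. The median difference over all genes was -0.05 against dorsal SKPs and -0.01 against facial SKPs. The 886 genes called against dorsal SKPs came down to 334, 465 and 327 without ventral array 1, 2 and 3. The 958 called against facial SKPs came down to 390, 479 and 394 without ventral array 1, 2 and 3, and to 610 and 515 without facial array 1 and 3.

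Genes called in all 3 comparisons in the same direction are termed ventral-distinct here. There were 274 such genes that were higher in ventral SKPs (1.89% of genes tested) and 66 that were lower (0.455%). The 3 comparisons share the ventral arrays, so this is a classification and not a test of its own, and the values below describe genes that those comparisons selected. Of the 274 higher genes, 136 were at least 2-fold above MSCs, and in 273 the 3 ventral arrays lay above all other 10. For 195 of them neither dorsal nor facial SKPs were called against MSCs, and for 44 both were called higher than MSCs as well, by a smaller amount. Their median difference was 1.00 from MSCs, 0.85 from dorsal SKPs and 0.86 from facial SKPs. Of the 66 lower genes, 23 were at least 2-fold below MSCs, and in all 66 the ventral arrays lay below the other 10. The median differences of the lower genes were -0.77 from MSCs, -0.72 from dorsal SKPs and -0.71 from facial SKPs. In both directions, calls against all 3 other groups favour genes without overlap. The missing overlap therefore adds no support of its own, and its share over all genes is not given here. Without ventral array 1, 2 or 3 the class held 146, 201 and 157 genes, of which 141, 182 and 146 were in the class of all arrays. The higher genes then numbered 124, 170 and 137 and the lower ones 22, 31 and 20, and without facial array 1 the lower ones numbered 40. Of 33 higher and 17 lower genes followed through the 13 fits that each left out 1 array, 20 and 6 kept all 3 calls in every fit.

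**Figure D1:**
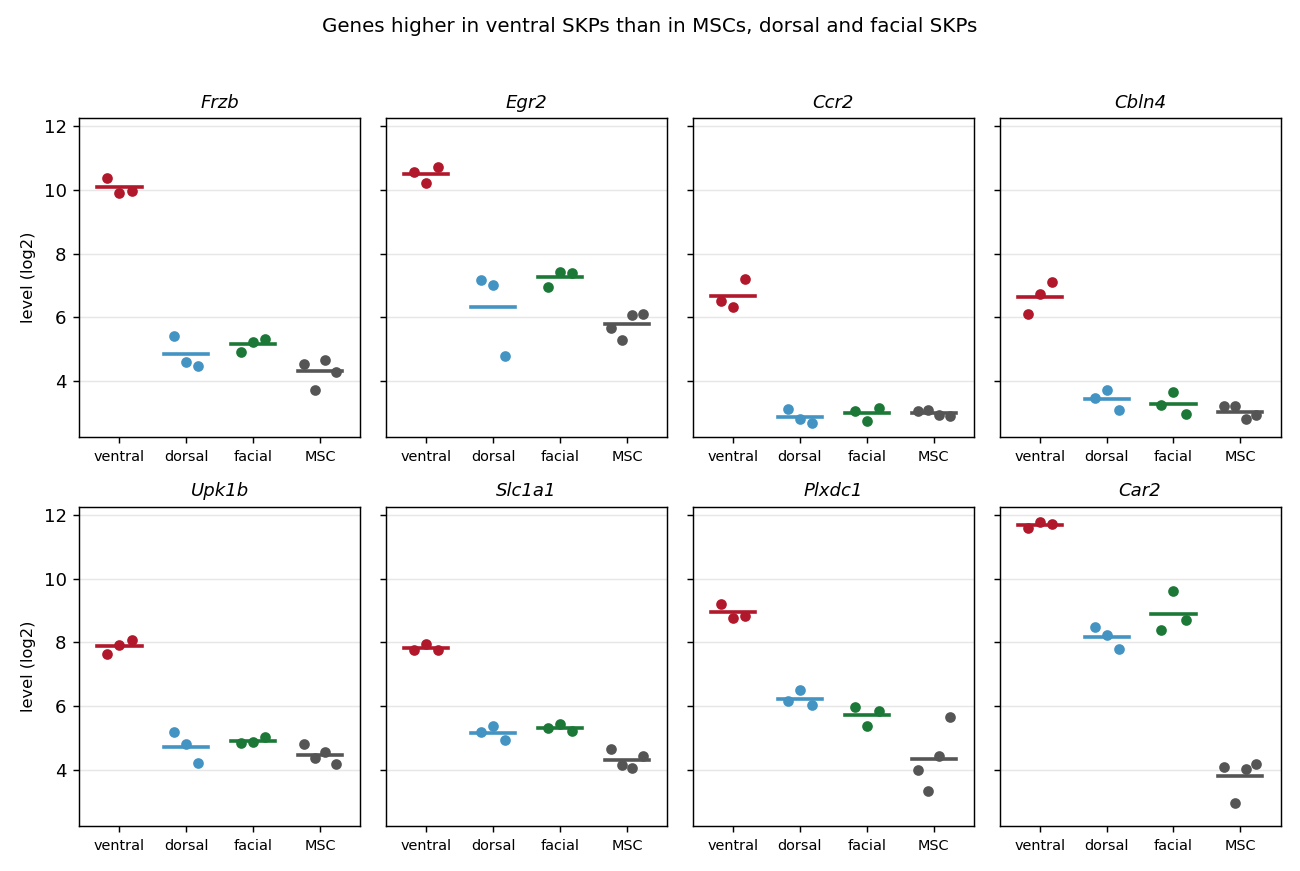
Levels (log2, vertical axis) of 8 ventral-distinct genes in each array, with ventral SKPs (n = 3), dorsal SKPs (n = 3), facial SKPs (n = 3) and MSCs (n = 4) along the horizontal axis; points are arrays and lines are group means. The 3 ventral points lie above all other 10 in each panel, with Frzb at 9.89 to 10.38 against at most 5.42 elsewhere, and Car2 in dorsal and facial SKPs lies between ventral SKPs and MSCs.

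Among ventral-distinct genes, Frzb had the largest smallest difference over the 3 comparisons. It codes for a secreted Frizzled-related protein that binds Wnt ligands and keeps them from their receptors. It was at 10.38, 9.89 and 9.97 in the ventral arrays, 5.42, 4.62 and 4.49 in dorsal SKPs, 4.92, 5.23 and 5.33 in facial SKPs and 4.54, 3.74, 4.66 and 4.29 in MSCs. Ventral SKPs were 54.6-fold above MSCs (difference 5.77, SE 0.26, adjusted p = 8.31e-08), and they were 5.24 above dorsal and 4.92 above facial SKPs.

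Wnt proteins signal from dermal cells to hair follicles and back, and the dermal papilla is known to depend on them. Of 24 measured Wnt ligands and secreted regulators, Frzb among them, 13 were higher and 1 was lower in ventral SKPs than in MSCs (median difference 1.10, against -0.04 over all genes). Against dorsal SKPs 4 were higher (3.76% over all genes) and 3 lower (2.35%), and against facial SKPs 3 were higher (4.36%) and 3 lower (2.25%). In dorsal SKPs 11 of the 24 were higher and 2 lower than in MSCs, and in facial SKPs 13 were higher and none lower. The ventral-distinct members were Frzb, Wnt6 and Dkk1, 3 of 24, beside 1.89% of all genes. Wnt6, a ligand of the canonical pathway, was at 5.76, 5.78 and 5.80 in ventral SKPs, 4.81 to 5.11 in dorsal SKPs, 4.88 to 5.06 in facial SKPs and 4.71 to 4.97 in MSCs, without overlap (difference from MSCs 0.93, SE 0.10, adjusted p = 7.20e-05). The antagonist Dkk1 was also ventral-distinct, at 4.67, 4.95 and 4.23 in ventral SKPs and 2.92 to 3.85 in all other arrays. Its calls against dorsal and facial SKPs were lost without ventral array 1 or 2, and against dorsal SKPs also without dorsal array 2 or 3 (adjusted p up to 0.114). Wnt5a, Wnt7b and Wnt16 were each higher in ventral SKPs than in MSCs (differences 2.39, 2.27 and 2.24). Wnt16 was also called lower in ventral than in dorsal SKPs, a call lost without ventral array 3 (-1.30, adjusted p = 0.0582). Wnt7b was called lower than in dorsal SKPs without dorsal array 3 (-1.22, adjusted p = 0.0208). The antagonist Sfrp2 went a different way among SKPs: it was at 5.17, 5.66 and 5.22 in ventral SKPs, 8.97, 10.13 and 9.63 in facial SKPs and 3.58 to 3.79 in MSCs. Ventral SKPs were thus above MSCs (1.64, adjusted p = 0.00399) and below facial SKPs (-4.22, adjusted p = 5.94e-05). In Sfrp2 they were called below dorsal SKPs too (adjusted p = 0.0196), a call lost without ventral array 1 or 3 (adjusted p up to 0.0813). Of 9 Wnt target genes, 4 were higher than in MSCs and none lower, among them Lef1 (1.80) and Axin2 (1.72), a transcription factor and a feedback inhibitor of the pathway. The call of Axin2 was lost without MSC arrays 3 and 4 together (1.43, adjusted p = 0.0653). In dorsal SKPs 5 of the 9 targets were higher than in MSCs and in facial SKPs 4, with none lower in either group.

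The T-box factor Tbx5 marks the forelimb field and the heart in the embryonic lateral plate. It was the one ventral-distinct member among 19 measured lateral plate and ventral body wall factors, beside 1.89% of all genes. It was at 6.57, 6.36 and 6.05 in ventral SKPs, 3.90, 4.40 and 3.89 in dorsal SKPs, 4.41, 4.01 and 4.03 in facial SKPs and 4.40, 3.78, 4.19 and 4.31 in MSCs. No other array reached the ventral ones. The difference was 2.16 from MSCs (SE 0.19, adjusted p = 1.27e-05), 2.27 from dorsal and 2.18 from facial SKPs. The list had no common direction against MSCs, with 4 of 19 higher (Tbx5 among them) and 5 lower. Over all genes, 13% were higher and 11.4% lower. Tbx2 (2.23) and Irx1 (1.61) were higher in ventral SKPs than in MSCs, and Tbx4, the hindlimb counterpart of Tbx5, was lower (-1.20).

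**Figure D2:**
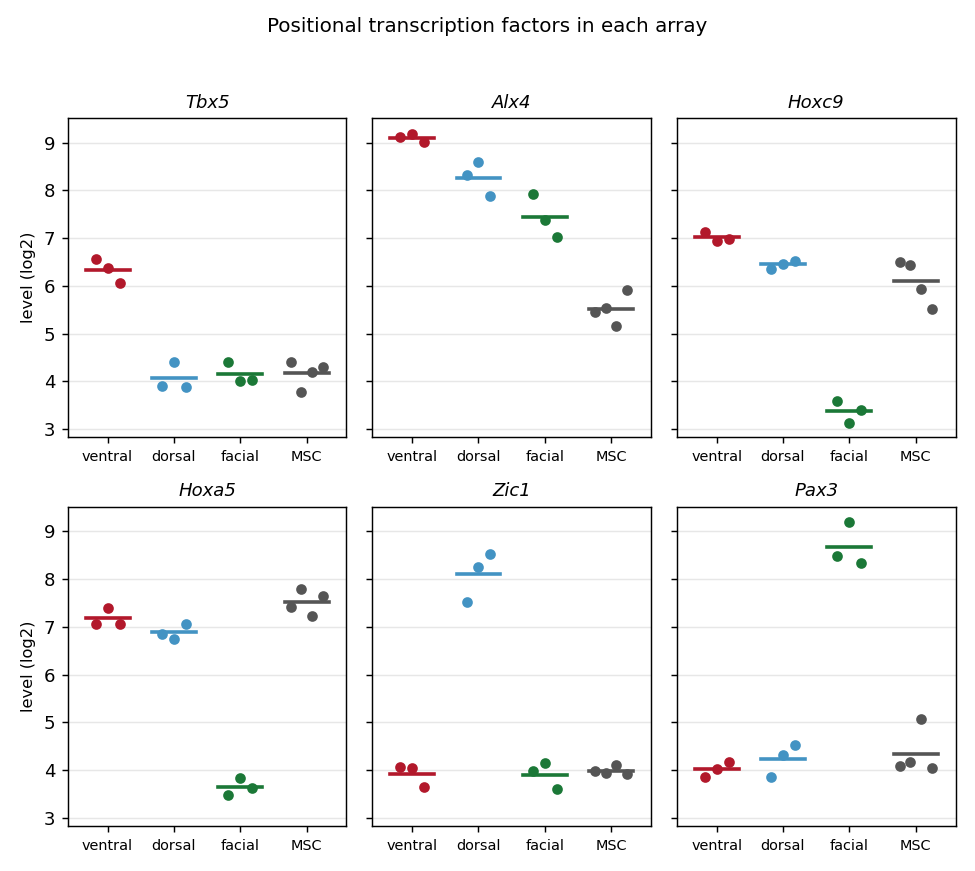
Levels (log2, vertical axis) of 6 positional transcription factors in each array of ventral SKPs, dorsal SKPs, facial SKPs and MSCs (horizontal axis); points are arrays and lines are group means. Tbx5 is high in ventral SKPs alone (6.05 to 6.57), Zic1 in dorsal SKPs alone and Pax3 in facial SKPs alone, while Hoxa5 and Hoxc9 are low in facial SKPs.

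Hox genes record position along the body axis by their nested expression. Of 11 measured anterior Hox genes, 2 were higher and 1 was lower in ventral SKPs than in MSCs (13% and 11.4% over all genes). None of the 11 differed by the test from dorsal SKPs, beside 3.76% higher and 2.35% lower over all genes. Higher than in facial SKPs were 5 of them, beside 4.36% of all genes. Hoxa5 was at 7.07, 7.40 and 7.07 in ventral SKPs, 6.76 to 7.06 in dorsal SKPs, 3.47, 3.83 and 3.63 in facial SKPs and 7.23 to 7.80 in MSCs. It did not pass the test against MSCs (difference -0.35, adjusted p = 0.123), except without MSC array 3 (-0.45, adjusted p = 0.0485) or with array weights (-0.42, 0.0323). Hoxa5 stood 3.54 above facial SKPs. Hoxc9, a trunk Hox gene, was at 7.12, 6.94 and 6.99 in ventral SKPs, 6.36 to 6.52 in dorsal SKPs, 3.14 to 3.60 in facial SKPs and 5.51 to 6.49 in MSCs (difference from MSCs 0.92, adjusted p = 0.00707). Hoxa11, a gene of the posterior body and the limb, was lower in ventral SKPs than in MSCs (-3.42, adjusted p = 0.00156). Its ventral level, 3.13 to 3.58, was near background, and the MSC arrays ranged from 5.28 to 8.46. Without MSC arrays 3 and 4 together the difference from MSCs was -2.18 in Hoxa11 and 0.55 in Hoxc9, both still called. The craniofacial and scapular factor Alx4 was at 9.11, 9.18 and 9.01 in ventral SKPs, 7.89 to 8.59 in dorsal SKPs, 7.02 to 7.92 in facial SKPs and 5.16 to 5.91 in MSCs. The ventral arrays were above all others, although the difference from dorsal SKPs (0.83) did not pass the test (adjusted p = 0.0708). It was called without facial array 1 (0.0484) and with the replicate number as a block (0.0354). Zic1 and Pax3, named here after their values were seen, were high in one other SKP group each. Zic1 was at 4.06, 4.04 and 3.64 in ventral SKPs and 7.53 to 8.53 in dorsal SKPs, and Pax3 at 3.85, 4.02 and 4.17 in ventral SKPs and 8.34 to 9.20 in facial SKPs. Neither differed by the test between ventral SKPs and MSCs (adjusted p = 0.844 for Zic1 and 0.445 for Pax3).

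Cbln4, LRRTM1 and Slc1a1 were also among the 15 leading ventral-distinct genes. All 3 are known from neurons. Of 14 neuronal markers none was ventral-distinct, beside 1.89% of all genes that were higher in that class. A list of 14 is too short to tell this absence from that share. Cbln4, a secreted synapse organiser of the cerebellin family, was at 6.10, 6.74 and 7.12 in ventral SKPs and 2.82 to 3.73 in all other arrays (difference from MSCs 3.61, SE 0.24, adjusted p = 1.68e-06). LRRTM1, a postsynaptic membrane protein, was at 7.59, 8.12 and 7.27 in ventral SKPs and 3.92 to 5.23 elsewhere (3.55, SE 0.27, adjusted p = 3.97e-06). Slc1a1, a neuronal glutamate transporter, was at 7.77, 7.95 and 7.77 in ventral SKPs, 4.93 to 5.43 in dorsal and facial SKPs and 4.08 to 4.65 in MSCs (3.50, SE 0.15, adjusted p = 6.58e-08). In none of the 3 genes did the ventral arrays overlap with any other array.

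Nestin (Nes), an intermediate filament of neural stem cells that is used to mark SKPs, was at 7.62, 7.42 and 7.57 in ventral SKPs, 4.33, 5.03 and 3.57 in dorsal SKPs, 4.84, 5.12 and 4.41 in facial SKPs and 4.55, 4.68, 6.94 and 6.04 in MSCs. The dorsal and facial levels overlapped with those of MSC arrays 1 and 2, and the ventral levels lay above every other array. Ventral SKPs were 1.98 above MSCs (SE 0.52, adjusted p = 0.0153), 3.23 above dorsal and 2.74 above facial SKPs. The call against MSCs was lost without ventral array 1 (adjusted p = 0.0533), without ventral array 3 (0.0509) and without MSC arrays 1 and 2 together (0.0933). The call against facial SKPs was lost without ventral array 1 or 3 or facial array 3 (adjusted p up to 0.0554). Of 18 neural crest factors, 9 were higher and 2 were lower in ventral SKPs than in MSCs (median difference 0.50). Over all genes, 13% were higher and 11.4% lower. In dorsal SKPs 6 of the 18 were higher and 2 lower than in MSCs, and in facial SKPs 8 were higher and none lower. Among the 18 factors, Tfap2c was at 9.22, 9.25 and 8.73 in ventral SKPs, 8.92 to 9.60 in dorsal SKPs, 8.08 to 8.59 in facial SKPs and 3.71 to 4.62 in MSCs. The neurotrophin receptor Ngfr was at 6.67, 6.98 and 6.50 in ventral SKPs, 5.35 to 6.04 in dorsal SKPs, 5.30 to 6.24 in facial SKPs and 4.53 to 5.48 in MSCs. Ngfr was higher in ventral SKPs than in MSCs (1.72, adjusted p = 0.000669), and its differences from dorsal (1.03, adjusted p = 0.0551) and facial SKPs (0.84, adjusted p = 0.104) did not pass the test. The first of these was called without dorsal array 1, facial array 3 or MSC array 3 (adjusted p of 0.0324 to 0.0462).

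Among 18 axon guidance ligands, 9 were higher and 2 lower in ventral SKPs than in MSCs, 5 were higher and none lower than in dorsal SKPs, and 1 was higher and none lower than in facial SKPs. Over all genes 3.76% were higher than in dorsal SKPs and 4.36% higher than in facial SKPs. In dorsal SKPs 7 of the 18 ligands were higher and 2 lower than in MSCs, and in facial SKPs 10 and 3. The semaphorin Sema3d, a secreted repellent, was ventral-distinct, at 10.74, 11.58 and 10.52 in ventral SKPs, 7.81 to 9.13 in dorsal SKPs, 6.19 to 6.70 in facial SKPs and 7.65 to 9.55 in MSCs (difference from MSCs 2.66, adjusted p = 0.00114). Facial SKPs lay below MSCs in the same gene. The call of Sema3d against dorsal SKPs was lost without ventral array 1 or 2 (adjusted p up to 0.0609). Sema3a, another secreted repellent, was at 11.90, 12.09 and 11.97 in ventral SKPs, 11.02 to 11.44 in dorsal SKPs, 11.84 to 12.03 in facial SKPs and 5.90 to 6.39 in MSCs. It was 5.85 above MSCs and 0.72 above dorsal SKPs, the second of which was lost without ventral array 2 or 3 (adjusted p up to 0.0556).

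The immediate-early transcription factor Egr2 was at 10.56, 10.22 and 10.70 in ventral SKPs, 7.17, 7.01 and 4.78 in dorsal SKPs, 6.96, 7.41 and 7.41 in facial SKPs and 5.66, 5.28, 6.08 and 6.11 in MSCs. Egr2 is known for the control of myelination in Schwann cells and is also induced by growth factors in fibroblasts. Ventral SKPs stood 4.71 above MSCs (SE 0.47, adjusted p = 2.95e-05), 4.17 above dorsal and 3.23 above facial SKPs. Egr2 is itself one of the 15 Schwann and glial markers. Of the 14 others, 3 were higher and 1 lower in ventral SKPs than in MSCs, beside 13% and 11.4% over all genes. The mean level of these 14 was 5.265 to 5.35 in ventral arrays and 5.14 to 5.39 in MSC arrays, so that the ranges overlapped. In dorsal arrays it was 4.88 to 5.09 and in facial arrays 5.17 to 5.25, below every ventral array.

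Dusp1 and Ccn1, which like Egr2 are early response genes, were lower. Dusp1, a phosphatase that switches off MAP kinases and is induced by stress and serum, was at 8.51, 8.36 and 8.46 in ventral SKPs, 10.45, 10.05 and 10.54 in dorsal SKPs, 10.35, 10.70 and 10.42 in facial SKPs and 11.34, 11.56, 11.34 and 11.45 in MSCs. Ventral SKPs were 7.89-fold below MSCs (difference -2.98, SE 0.13, adjusted p = 7.90e-08), and dorsal and facial SKPs lay between these groups without overlap. Ccn1, a matricellular protein and a known target of the YAP and TEAD pathway, was at 8.12, 8.20 and 7.71 in ventral SKPs, 10.46, 10.47 and 8.72 in dorsal SKPs, 9.79, 9.82 and 9.15 in facial SKPs and 11.18 to 11.80 in MSCs (difference from MSCs -3.45, adjusted p = 5.29e-05). Its call against dorsal SKPs was lost without ventral array 1 or 3 or dorsal array 1 or 2, and its call against facial SKPs without any 1 of the ventral or facial arrays or MSC array 2 (adjusted p up to 0.131).

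The promoters of these 3 genes are shown because the genes share a class of early response but differed in opposite directions. Each sequence holds 300 bases from RefSeq on build GRCr8, from 250 before to 50 after the annotated start. Capitals mark matches, on either strand, to the serum response CArG box (named only, since its centre is A or T), the cyclic AMP response element TGACGTCA and the TEAD word GGAATG.
Egr2 (chr20:21054392-21054691, minus strand): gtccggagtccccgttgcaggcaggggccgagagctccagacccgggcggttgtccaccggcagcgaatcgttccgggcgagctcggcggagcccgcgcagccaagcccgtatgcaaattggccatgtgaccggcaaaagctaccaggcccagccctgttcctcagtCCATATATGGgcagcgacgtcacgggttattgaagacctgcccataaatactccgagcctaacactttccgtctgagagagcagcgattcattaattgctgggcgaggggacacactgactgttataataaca
Dusp1 (chr10:17184603-17184902, plus strand): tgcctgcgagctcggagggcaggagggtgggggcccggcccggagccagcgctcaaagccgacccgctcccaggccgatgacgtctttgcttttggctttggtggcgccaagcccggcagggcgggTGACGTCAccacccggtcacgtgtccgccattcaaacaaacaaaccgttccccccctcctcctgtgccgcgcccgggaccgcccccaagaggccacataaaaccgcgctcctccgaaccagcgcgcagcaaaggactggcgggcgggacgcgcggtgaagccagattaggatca
Ccn1 (chr2:237225640-237225939, minus strand): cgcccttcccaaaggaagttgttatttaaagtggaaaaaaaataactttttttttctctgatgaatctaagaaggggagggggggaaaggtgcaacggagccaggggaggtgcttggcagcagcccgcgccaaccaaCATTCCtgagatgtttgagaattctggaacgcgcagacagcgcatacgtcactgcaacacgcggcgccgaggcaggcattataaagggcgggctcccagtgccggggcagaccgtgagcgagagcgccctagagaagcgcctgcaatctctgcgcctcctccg
Each window held 1 match, and each a different one: a CArG box starting 83 bases upstream in Egr2, a cyclic AMP response element 124 bases upstream in Dusp1 and a TEAD word 113 bases upstream, on the other strand, in Ccn1. None of the motifs overlap. Of 27457 promoters of that length in the table, 1.64% held a CArG box, 1.91% the cyclic AMP response element and 13.9% the TEAD word.

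Genes of the FGF and MAP kinase pathway were called in both directions. Of 19 measured, 7 were higher and 4 lower in ventral SKPs than in MSCs (median difference 0.51), beside 13% and 11.4% over all genes. In dorsal SKPs 7 were higher and 3 lower than in MSCs, and in facial SKPs 9 and 3. The feedback phosphatases Dusp4 (5.25) and Dusp6 (3.18), which act on ERK, were higher in ventral SKPs than in MSCs, and the ligand Hbegf was lower (-3.83). Etv4, an ETS factor induced by FGF signalling, was the one ventral-distinct member, beside 1.89% of all genes. It was at 8.09, 7.95 and 8.18 in ventral SKPs, 6.66 to 6.98 in dorsal SKPs, 6.92 to 7.30 in facial SKPs and 5.42 to 5.89 in MSCs (difference from MSCs 2.43, SE 0.14, adjusted p = 4.00e-07).

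A group of endothelial transcripts was higher in ventral SKPs than in the other groups. Of 13 measured endothelial markers, 8 were higher and 1 was lower than in MSCs, with a median difference of 0.91. Higher than in dorsal SKPs were 5 of the 13 (3.76% over all genes), and none was lower (2.35%). Against facial SKPs, too, 5 were higher (4.36% over all genes) and none lower (2.25%). The ventral-distinct members numbered 5 of 13, beside 1.89% of all genes. In dorsal SKPs against MSCs, and likewise in facial SKPs against MSCs, none was called higher and 1 was called lower. Over all 14506 genes, 1272 were higher and 1125 lower in dorsal SKPs than in MSCs, and 1373 and 1389 in facial SKPs. Pecam1 (CD31), an adhesion molecule of endothelial junctions and platelets, was at 6.65, 5.43 and 6.50 in ventral SKPs, 3.47, 3.62 and 3.49 in dorsal SKPs, 3.46, 3.02 and 4.31 in facial SKPs and 4.05, 3.29, 3.65 and 3.28 in MSCs (difference from MSCs 2.63, SE 0.33, adjusted p = 0.000176). Emcn, an endothelial sialomucin, was at 5.65, 4.85 and 5.92 in ventral SKPs and 2.66 to 3.44 in all other arrays, which is below background (2.42, SE 0.26, adjusted p = 4.95e-05). The VEGF receptor Kdr was at 5.31, 4.57 and 5.19 in ventral SKPs and 3.29 to 3.82 elsewhere (1.59, SE 0.17, adjusted p = 6.09e-05). Ventral array 2 was the lowest of its group in these 3 genes and still above all arrays of the other groups.

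The junctional cadherin Cdh5 was at 4.99, 4.87 and 4.65 in ventral SKPs and 3.64 to 4.02 in the other arrays (1.03, adjusted p = 3.58e-05). The endothelial nitric oxide synthase Nos3 was the fifth ventral-distinct member (0.85, adjusted p = 0.000818). Its calls against dorsal and facial SKPs were lost without ventral array 1 or 3, and against facial SKPs also without facial array 2 (adjusted p up to 0.0807). Flt1 (2.28) and Tie1 (1.75), 2 further endothelial receptors, were called against MSCs but not against dorsal or facial SKPs. Against dorsal SKPs Flt1 was called without dorsal array 2 or MSC array 4 (adjusted p down to 0.0411), and Tie1 without facial array 2 or 3 (down to 0.00726), the second of which also gave a call of Tie1 against facial SKPs (0.0307). Both calls against MSCs were lost without MSC arrays 1 and 2 together (adjusted p = 0.0568 and 0.0651). The member called lower was Egfl7 (-0.71, adjusted p = 0.0477), a call lost in 9 of 13 fits that left out 1 array (each ventral array, MSC arrays 1, 2 and 4, facial arrays 1 and 2 and dorsal array 2, adjusted p up to 0.179). The mean over the 13 markers was 5.92, 5.55 and 5.99 in the ventral arrays, 4.42 to 4.82 in dorsal SKPs, 4.79 to 5.04 in facial SKPs and 4.50 to 4.91 in MSCs. The part of endothelial cells in the other ventral-distinct genes was not tested. In bulk RNA, fewer cells of a type and less RNA per cell cannot be told apart.

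**Figure D3:**
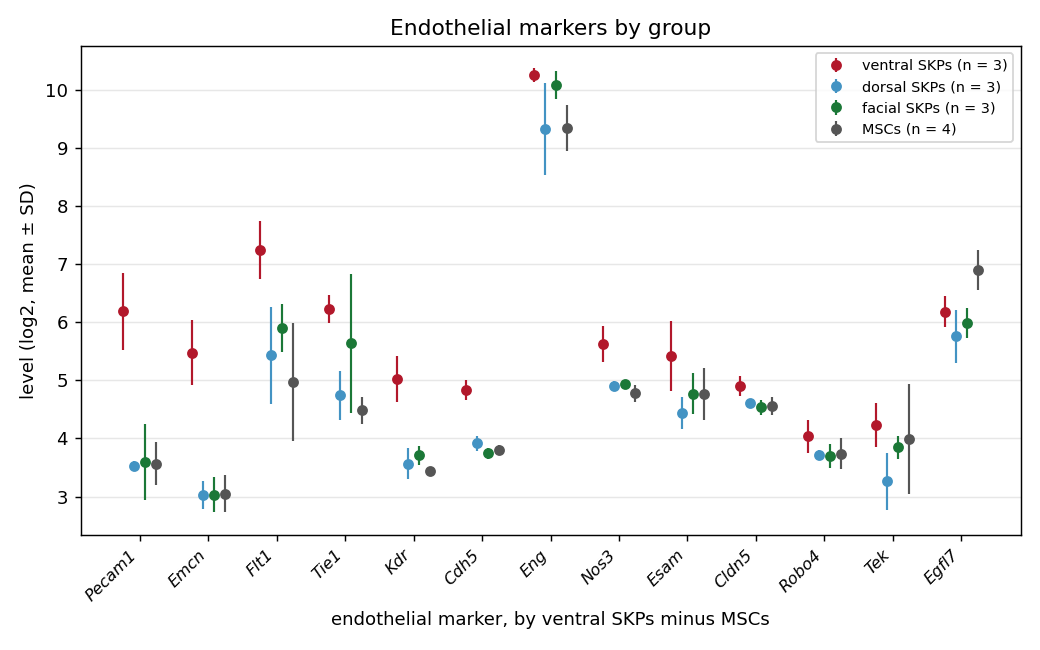
Mean levels (log2, vertical axis; bars are the SD over arrays) of the 13 measured endothelial markers, ordered along the horizontal axis by ventral SKPs minus MSCs, in ventral SKPs, dorsal SKPs, facial SKPs and MSCs. Pecam1, Emcn, Kdr and Cdh5 are higher in ventral SKPs than in the 3 other groups, which lie close together, and Egfl7 is highest in MSCs.

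The following 5 ventral-distinct genes are outside the endothelial list and form no list of their own. Jam2 and Plxdc1 come from the leading ventral-distinct genes, and Sox18, Dll4 and Rgs5 from other lists. Their higher ventral level is what selected them, so they add no support to the endothelial markers. Sox18, a transcription factor of endothelial and dermal papilla cells, was at 5.18, 4.74 and 5.40 in ventral SKPs and 3.18 to 3.82 in the other arrays (1.57, SE 0.18, adjusted p = 9.04e-05). The tight junction protein Jam2 was at 7.27, 6.38 and 6.84 in ventral SKPs and 3.37 to 4.74 elsewhere (3.36, SE 0.27, adjusted p = 6.16e-06). Plxdc1, a membrane protein of tumour endothelium, was at 9.22, 8.78 and 8.83 in ventral SKPs, 6.03 to 6.51 in dorsal SKPs, 5.39 to 5.96 in facial SKPs and 3.33 to 5.68 in MSCs (4.58, SE 0.41, adjusted p = 1.46e-05). In these 3 genes, too, no other array reached the ventral ones. Dll4, a Notch ligand of arterial endothelium, was at 4.88, 4.10 and 5.03 in ventral SKPs and 3.14 to 3.91 elsewhere. Both calls against other SKPs were lost without ventral array 1 or 3, that against dorsal SKPs also without dorsal array 2 or 3, and that against facial SKPs also without any 1 of the facial arrays (adjusted p up to 0.124). Rgs5, a pericyte gene, was higher by 1.17 in ventral SKPs than in MSCs. It was the one higher member of 14 smooth muscle and pericyte markers, of which 3 were lower (median difference -1.03). The call of Rgs5 against dorsal SKPs was lost without ventral array 3 (adjusted p = 0.0553), and that against MSCs without MSC arrays 1 and 2 together (adjusted p = 0.0612).

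Ccr2, the receptor for the monocyte chemokine CCL2, was at 6.51, 6.31 and 7.19 in ventral SKPs, 3.14, 2.80 and 2.70 in dorsal SKPs, 3.08, 2.77 and 3.15 in facial SKPs and 3.06, 3.11, 2.93 and 2.92 in MSCs. It was above background in ventral SKPs alone (difference from MSCs 3.66, SE 0.19, adjusted p = 2.27e-07). None of the 21 measured macrophage and leukocyte markers was ventral-distinct, beside 1.89% of all genes that were higher in that class. With 21 genes, this absence cannot be told from that share. Of the 21 markers, 3 were higher in ventral SKPs than in MSCs (Cd74 by 3.93, Cd68 by 3.54 and Cd53 by 2.81). Over all genes this share was 13%. The fit pools the spread of all 4 groups, which limits this count. The SD over arrays of the mean marker level was 1.90 in facial and 1.35 in dorsal SKPs. In ventral SKPs it was 0.18 and in MSCs 0.19. None of the markers differed by the test from dorsal SKPs, beside 3.76% higher and 2.35% lower over all genes. Lower than in facial SKPs were 4 of them, beside 2.25% of all genes. The call of Cd53 was lost without any 1 of the ventral arrays or MSC array 2, 3 or 4 (adjusted p up to 0.089), and that of Cd74 without MSC arrays 1 and 2 together (adjusted p = 0.0616). Without facial array 3, Cd74 was called higher in ventral than in dorsal (2.93, adjusted p = 0.0227) and facial SKPs (3.64, 0.0188). Cd53 was called higher than in dorsal SKPs without dorsal array 1 (3.16, adjusted p = 0.0443). The mean level of the 21 markers was 5.25 to 5.60 in ventral arrays, 4.26 to 6.88 in dorsal SKPs, 6.11 to 9.83 in facial SKPs and 4.31 to 4.72 in MSCs. Facial SKPs, which had the highest marker levels, held Ccr2 below background. Which cells of the ventral cultures carried Ccr2 was not tested.

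The other leading genes of the class, by the smallest difference over the 3 comparisons, had mixed roles. Mfap2, a glycoprotein of elastic microfibrils, was at 10.14, 9.53 and 9.70 in ventral SKPs, 4.96 to 7.53 in dorsal SKPs, 6.34 to 7.44 in facial SKPs and 3.72 to 4.51 in MSCs (difference from MSCs 5.66, SE 0.51, adjusted p = 1.40e-05). Its call against facial SKPs was lost without ventral array 1 (adjusted p = 0.0522). The uroplakin gene Upk1b, best known from the bladder lining, was at 7.64, 7.93 and 8.08 in ventral SKPs, 4.21 to 5.18 in dorsal and facial SKPs and 4.19 to 4.81 in MSCs (3.40, SE 0.21, adjusted p = 9.29e-07). The multidrug transporter Slc47a1 was at 8.90, 8.57 and 9.58 in ventral SKPs, 4.13 to 6.96 in dorsal SKPs, 4.68 to 7.41 in facial SKPs and 3.90 to 4.25 in MSCs. Abca8a, a lipid transporter, was at 8.06, 7.40 and 7.42 in ventral SKPs and 2.76 to 5.91 elsewhere. Both stood above every other array, but their calls against other SKPs were lost without any 1 of the ventral arrays in Slc47a1, and in Abca8a against facial SKPs (adjusted p up to 0.145). Dorsal array 3, for the call of Slc47a1 against dorsal SKPs, and single MSC or facial arrays, for the calls of both genes against facial SKPs, had the same effect. Ttc39b, a gene that affects cholesterol handling, was at 10.68, 10.14 and 10.61 in ventral SKPs, 7.12 to 8.29 in dorsal and facial SKPs and 6.65 to 8.36 in MSCs (3.21, adjusted p = 0.000121). Car2 was at 11.57, 11.78 and 11.70 in ventral SKPs, 8.47, 8.23 and 7.78 in dorsal SKPs, 8.37, 9.61 and 8.70 in facial SKPs and 4.11, 2.97, 4.04 and 4.19 in MSCs. Car2 was 231-fold above MSCs (difference 7.85, SE 0.33, adjusted p = 6.58e-08). All 3 SKP groups lay above MSCs in Car2, and ventral SKPs lay above the other SKPs by 3.52 and 2.79.

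Of 23 matrix proteases and their inhibitors, 12 were higher and 3 lower in ventral SKPs than in MSCs (median difference 1.48). In dorsal SKPs 10 were higher and 3 lower than in MSCs, and in facial SKPs 13 and 2. The ventral-distinct members were 2 of the 23, beside 1.89% of all genes. Adamts4, an aggrecan-cleaving protease, was ventral-distinct, at 9.08, 9.05 and 8.97 in ventral SKPs, 6.78 to 7.55 in dorsal SKPs, 7.05 to 7.75 in facial SKPs and 5.46 to 6.73 in MSCs (3.04, SE 0.29, adjusted p = 2.20e-05). The membrane protease Mmp14, which activates gelatinase, was at 12.66, 12.24 and 12.55 in ventral SKPs, 11.23 to 11.81 in dorsal SKPs, 11.60 to 11.94 in facial SKPs and 10.73 to 11.07 in MSCs (1.61, adjusted p = 3.64e-05). The calls of Mmp14 were lost without ventral array 1 or 3 against both other SKP groups, and without facial array 1 or 3 against facial SKPs (adjusted p up to 0.131). The inhibitor Timp3 was at 10.39, 9.61 and 10.77 in ventral SKPs, 6.43 to 8.07 in dorsal SKPs, 9.71 to 10.06 in facial SKPs and 4.06 to 5.41 in MSCs, so that it set ventral apart from dorsal but not from facial SKPs. The collagen gene Col14a1 was at 11.57, 11.01 and 11.44 in ventral SKPs, 7.05 to 8.60 in dorsal SKPs, 9.99 to 11.30 in facial SKPs and 9.18, 9.01, 9.52 and 9.998 in MSCs. Ventral SKPs were above MSCs in Col14a1 (1.91, adjusted p = 0.00365) and dorsal SKPs below them.

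**Figure D4:**
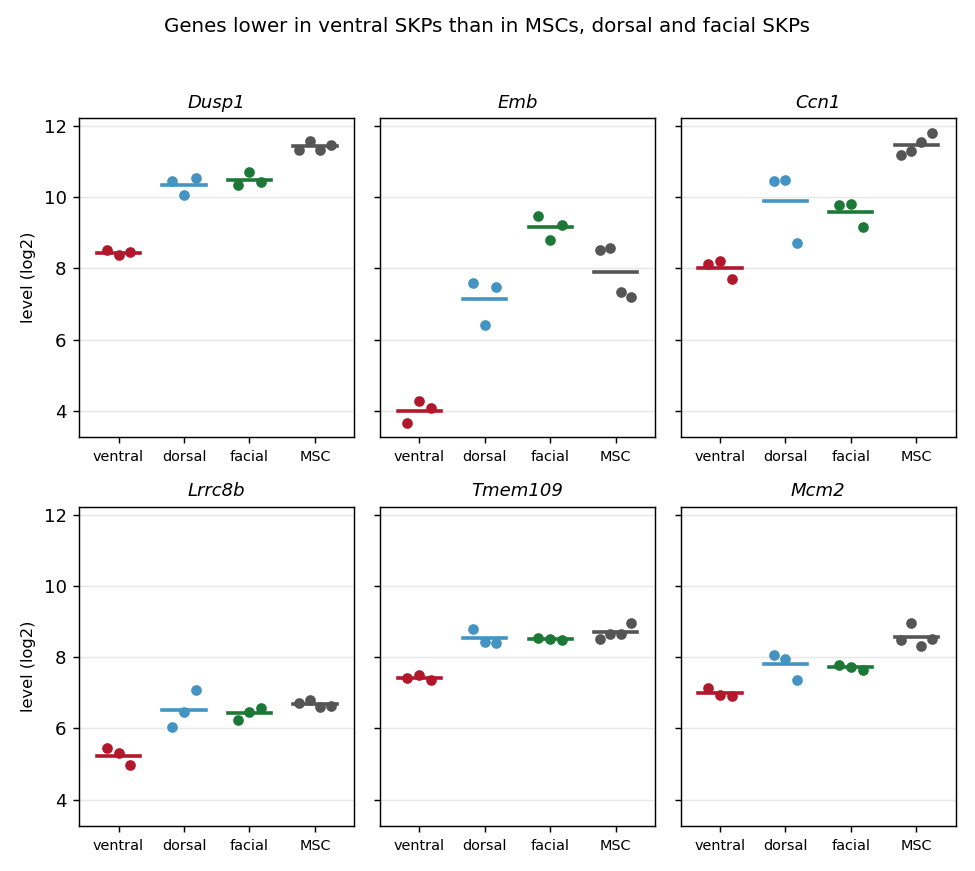
Levels (log2, vertical axis) of 6 genes that were lower in ventral SKPs than in the 3 other groups, in each array of ventral SKPs, dorsal SKPs, facial SKPs and MSCs (horizontal axis); points are arrays and lines are group means. The ventral points lie below all others in each panel, from Emb (3.67 to 4.27 against at least 6.40) to Mcm2 (6.91 to 7.14 against at least 7.36).

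The lower ventral-distinct genes were led by Emb, which codes for embigin, a membrane partner of monocarboxylate transporters. It was at 3.67, 4.27 and 4.07 in ventral SKPs, 7.58, 6.40 and 7.47 in dorsal SKPs, 9.47, 8.80 and 9.22 in facial SKPs and 8.50, 8.56, 7.33 and 7.19 in MSCs. Ventral SKPs were 14.9-fold below MSCs (difference -3.89, SE 0.39, adjusted p = 2.95e-05), with differences of -3.15 from dorsal and -5.16 from facial SKPs. Lrrc8b, a subunit of volume-regulated anion channels, was at 5.44, 5.30 and 4.96 in ventral SKPs, 6.04 to 7.08 in dorsal SKPs, 6.23 to 6.58 in facial SKPs and 6.59 to 6.80 in MSCs (-1.45, adjusted p = 0.000377). Tmem109, a protein of the nuclear envelope and endoplasmic reticulum, was at 7.42, 7.49 and 7.37 in ventral SKPs, 8.40 to 8.80 in dorsal SKPs, 8.49 to 8.54 in facial SKPs and 8.52 to 8.96 in MSCs (-1.27, adjusted p = 2.75e-05). LOC366310, a locus without a gene name in the annotation, was also lower than in MSCs (-2.20, adjusted p = 1.27e-05). Scrn1, named secernin for its part in mast cell secretion, was at 6.19, 6.40 and 6.06 in ventral SKPs, 7.23 to 7.89 in dorsal SKPs, 7.08 to 7.72 in facial SKPs and 9.47 to 10.24 in MSCs. Its calls against other SKPs were lost without ventral array 3, and against facial SKPs also without ventral array 1 or facial array 1 (adjusted p up to 0.0605). The calls of Emb, Dusp1, LOC366310, Lrrc8b and Tmem109 held in all 13 fits that left out 1 array.

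Ltbp1, which holds latent TGF-beta in the matrix, was at 9.11, 9.79 and 8.86 in ventral SKPs, 9.91 to 10.93 in dorsal SKPs, 10.33 to 10.69 in facial SKPs and 10.83 to 11.28 in MSCs (-1.79, adjusted p = 0.000364). Both calls against other SKPs were lost without ventral array 1 or 3, that against dorsal SKPs also without dorsal array 1 or 2, and that against facial SKPs also without facial array 1 or 2 (adjusted p up to 0.0918). Arnt2, a partner of bHLH-PAS factors, was also called lower than in MSCs (-1.23, adjusted p = 0.0439). That call was lost without any 1 of the ventral or facial arrays, MSC array 1 or 2 or dorsal array 1 (adjusted p up to 0.132), and without MSC arrays 1 and 2 together the difference was -0.53 (adjusted p = 0.293). Its call against facial SKPs was lost without any 1 of the ventral or facial arrays (adjusted p up to 0.132), and that against dorsal SKPs without ventral array 1 or 3 (up to 0.056).

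Most cell cycle genes were lower than in MSCs in each SKP group. Of 22 measured, 19 were lower and none higher in ventral SKPs than in MSCs (median difference -2.22), against 19 lower in dorsal and 18 lower in facial SKPs. In ventral SKPs 2 were lower than in dorsal SKPs (2.35% over all genes) and 1 was lower than in facial SKPs (2.25%). Their mean level was 6.08 to 6.20 in ventral arrays, 5.22 to 7.26 in dorsal SKPs, 6.33 to 6.66 in facial SKPs and 7.62 to 8.49 in MSCs. Mcm2, a subunit of the replicative helicase, was at 7.14, 6.92 and 6.91 in ventral SKPs, 7.36 to 8.07 in dorsal SKPs, 7.65 to 7.78 in facial SKPs and 8.33 to 8.95 in MSCs (-1.57, adjusted p = 7.86e-05). It was the one ventral-distinct gene of the list, beside 0.455% of all genes that were lower in that class, and its calls did not hold throughout. That against dorsal SKPs was lost without any 1 of the ventral arrays or dorsal array 1 or 2, and that against facial SKPs without any 1 of the ventral or facial arrays, dorsal array 2 or MSC array 1 or 4 (adjusted p up to 0.141).

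Contractile genes were lower than in MSCs in each SKP group too. Of 18 actin and serum response genes, 16 were lower and none higher in ventral SKPs than in MSCs (median difference -3.00), against 17 lower in dorsal and 17 lower in facial SKPs. In ventral SKPs 2 of them were lower than in dorsal SKPs (2.35% over all genes). Against facial SKPs 1 was higher (4.36% over all genes) and 2 were lower (2.25%). Smooth muscle actin (Acta2) was at 7.74, 7.79 and 7.86 in ventral SKPs, 7.72 to 7.92 in dorsal SKPs, 7.68 to 7.93 in facial SKPs and 10.98, 11.39, 13.06 and 13.23 in MSCs. Calponin (Cnn1) followed it (difference from MSCs -5.18, adjusted p = 0.000139).

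**Figure D5:**
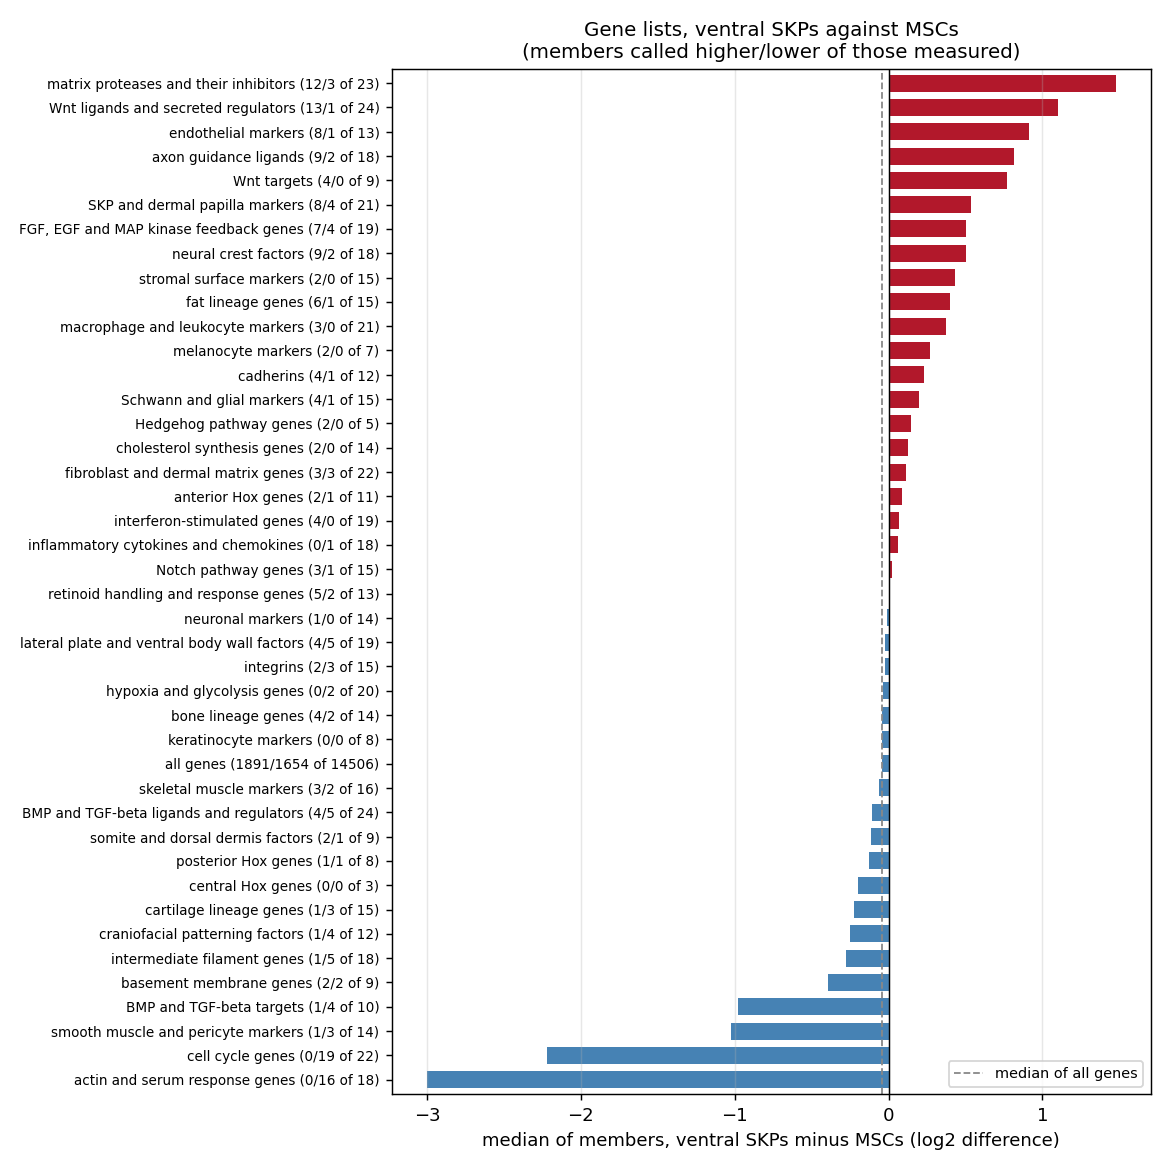
Median log2 difference (ventral SKPs minus MSCs, horizontal axis) of the measured members of each gene list (vertical axis), with the number of members called higher and lower of those measured in brackets; red bars are above 0, blue bars below, and the dashed line is the median of all genes at -0.04. Matrix proteases (1.48) and Wnt ligands and regulators (1.10) are at the top, and cell cycle genes (-2.22) and actin and serum response genes (-3.00) at the bottom.

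In the remaining lists fewer members were called, or members were called in both directions, beside 13% higher and 11.4% lower over all genes. Of 21 SKP and dermal papilla markers, 8 were higher and 4 lower in ventral SKPs than in MSCs, led by Crabp1, Igfbp5 (4.75) and Igfbp3 (4.50), which bind insulin-like growth factors. Of 24 BMP and TGF-beta ligands and regulators, 4 were higher and 5 lower, with Bmp7 (4.96) and Tgfb3 (-5.34) at the ends. Bmp7 was at 8.92, 9.12 and 8.76 in ventral SKPs, 7.28 to 8.74 in dorsal SKPs, 9.73 to 10.36 in facial SKPs and 3.67 to 4.42 in MSCs. Of 13 retinoid genes, 5 were higher and 2 lower, among the higher ones the retinoic acid hydroxylase Cyp26b1 (4.22). Of 15 fat lineage genes, 6 were higher and 1 lower, and lipoprotein lipase (Lpl) was at 9.20, 8.66 and 9.33 in ventral SKPs, 3.90 to 8.07 in dorsal SKPs, 7.62 to 9.01 in facial SKPs and 4.37 to 5.52 in MSCs (4.11, adjusted p = 0.0034). Of 15 Notch pathway genes, 3 were higher and 1 lower, and of 15 cartilage genes 1 was higher and 3 lower. The link protein Hapln1, which ties aggrecan to hyaluronan, was the higher one (4.99, adjusted p = 8.85e-06), at 8.61, 9.04 and 8.66 in ventral SKPs, 5.20 to 7.52 in dorsal SKPs, 7.12 to 7.95 in facial SKPs and 3.44 to 4.18 in MSCs. Of 18 inflammatory cytokines and chemokines, Il6 alone was called (-1.82), and of 8 keratinocyte markers none was called in any comparison, with mean levels of 3.82 to 3.99 in ventral SKPs and 3.51 to 3.95 in MSCs. Of 14 neuronal markers, Map2 was called (3.26, adjusted p = 0.000433), and 7 of the 14 were above background in ventral SKPs and 6 in MSCs. Map2 was also called higher in ventral than in dorsal SKPs (adjusted p = 0.0204). That call was lost without any 1 of the ventral arrays or dorsal array 2 (adjusted p up to 0.0765).

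The opposite pattern, a difference from MSCs that dorsal and facial SKPs had and ventral SKPs did not, was rarer. It was defined by calls in the same direction for dorsal and facial SKPs against MSCs, no call for ventral SKPs against MSCs, and calls between ventral and both other SKP groups. This held for 9 genes that were higher in dorsal and facial SKPs (0.062%) and 20 that were lower there (0.138%). The total of 29 was 11, 16 and 12 without ventral array 1, 2 and 3, 17, 10 and 15 without facial array 1, 2 and 3, and 45 without dorsal array 3. A missed threshold does not show that ventral SKPs and MSCs were alike, so the values are given.

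Loxl2, an enzyme that cross-links collagen, was at 9.24, 8.33 and 8.72 in ventral SKPs, 6.69, 6.33 and 6.04 in dorsal SKPs, 6.72, 6.30 and 6.30 in facial SKPs and 9.20, 8.97, 10.66 and 10.27 in MSCs. Ventral SKPs overlapped with MSCs (difference -1.01, SE 0.38, adjusted p = 0.0725) and were 2.41 above dorsal and 2.32 above facial SKPs. Loxl2 left the pattern, with a call against MSCs, without MSC array 1 (-1.21, adjusted p = 0.047), without MSC array 2 (-1.28, 0.0243) and without both (-1.71, 0.00197). Acvrl1, a TGF-beta family receptor that is prominent in endothelium, was at 8.68, 8.03 and 8.36 in ventral SKPs, 6.05 to 7.41 in dorsal SKPs, 6.56, 6.89 and 6.997 in facial SKPs and 8.40 to 8.64 in MSCs (difference from MSCs -0.14, adjusted p = 0.754). Its calls against dorsal and facial SKPs were lost without ventral array 1 (adjusted p = 0.0583 and 0.0508). Prtfdc1, a relative of a purine salvage enzyme, was at 9.56, 9.46 and 9.81 in ventral SKPs, 8.25 to 8.55 in dorsal SKPs, 8.20 to 8.48 in facial SKPs and 9.02 to 9.68 in MSCs. Ext1, which builds heparan sulphate chains, was at 10.38, 9.99 and 10.21 in ventral SKPs, 8.92 to 9.17 in dorsal SKPs, 8.85 to 9.37 in facial SKPs and 9.55 to 9.99 in MSCs. Npy1r, a receptor for neuropeptide Y, was at 5.50, 5.01 and 5.45 in ventral SKPs, 3.80 to 3.91 in dorsal SKPs, 3.56 to 4.17 in facial SKPs and 4.52 to 6.09 in MSCs. Its call against dorsal SKPs was lost without any 1 of the ventral or dorsal arrays, and that against facial SKPs without any 1 of the ventral or facial arrays, dorsal array 2 or MSC array 2 (adjusted p up to 0.14). Without MSC array 3 Npy1r was called higher in ventral SKPs than in MSCs (0.69, adjusted p = 0.0212), and with array weights so was Ext1 (0.44, adjusted p = 0.029). In Prtfdc1 and Ext1 the ventral arrays lay above all dorsal and facial arrays.

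On the other side, Tmeff2, a transmembrane protein with follistatin-like parts, was at 3.89, 3.95 and 3.81 in ventral SKPs, 4.84 to 5.93 in dorsal SKPs, 4.92 to 5.58 in facial SKPs and 3.59 to 4.95 in MSCs. Its calls were lost without any 1 of the ventral arrays and in further fits (adjusted p up to 0.117 against dorsal SKPs, where these were the fits without dorsal array 1 or 2 or facial array 2, and 0.137 against facial SKPs, where all facial arrays, dorsal array 2 and MSC arrays 1 and 2 counted). Wnt4, a Wnt ligand, was at 5.54, 5.54 and 5.16 in ventral SKPs, 7.03, 6.96 and 7.10 in dorsal SKPs, 6.51, 6.58 and 5.89 in facial SKPs and 5.49, 5.57, 5.11 and 5.16 in MSCs. The ventral and MSC ranges of Wnt4 coincided (difference 0.08, SE 0.18, adjusted p = 0.796), and ventral SKPs were lower than dorsal SKPs (difference -1.62, adjusted p = 0.000844). The call against facial SKPs (-0.91, adjusted p = 0.0173) was lost without ventral array 3 or facial array 1 or 2 (adjusted p up to 0.0772). Leng8 was at 7.67, 7.78 and 7.93 in ventral SKPs, 8.39 to 9.08 in dorsal SKPs, 8.82 to 9.01 in facial SKPs and 8.02 to 8.26 in MSCs (difference from MSCs -0.36, adjusted p = 0.0958). Ventral SKPs were the lowest of the 4 groups in Leng8. Leng8 was called lower than in MSCs without dorsal array 1 (adjusted p = 0.0252), in the fit of ventral SKPs and MSCs alone (0.0351) and with array weights (0.0214).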

How the data were processed

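RNA of each isolate was extracted with Trizol and purified on RNeasy columns and measured on 1 array per isolate, per the labels' protocols. The deposited values are log2 signals made by the authors with RMA in Affymetrix Expression Console, gene-core analysis, per the submitters' processing notes and the labels, which name no version. RMA corrects background and scales all arrays to 1 distribution, which compresses low values. All 13 value columns matched a sample.

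Of the 29215 probe sets, 323 had several symbols and 13582 none in the platform annotation, and these were left out of the gene results. Of the single symbols, 15279 were matched to GRCr8 genes by Entrez identifier and 1 by accession, and 30 were kept as given. For 527 genes with more than 1 probe set, that of the highest overall mean stood for the gene, and promoter windows came from the same build.

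Group means of ventral, dorsal and facial SKPs and MSCs were fitted in 1 model of the 13 arrays (limma 3.58.1, R 4.3.3: lmFit, contrasts.fit, eBayes, 2-sided). A difference was called where its Benjamini-Hochberg adjusted p, taken over the 14506 genes of a comparison, was below 0.05. Every adjusted p quoted is from this model unless arrays are said to be left out or another alternative is named. The procedure was tested on simulated data with 200 changed genes. The alternatives tried were the arrays in the fit, moderation of variances, array weights, centring, a background filter, the probe set per gene, the replicate number as a block, and each array left out.

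The genes named were taken from orderings by a fixed rule: up to 15 per direction of the ventral-distinct genes, 8 per direction of the opposite pattern, 10 per direction of the difference from MSCs, up to 4 called members of each list with all its ventral-distinct members, and a fixed set of markers. The text names part of these. The members and lists were chosen with earlier results of these data known. Of the 340 ventral-distinct genes, 275 had a promoter in the table used.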

Additional observations from a re-analysis of the deposited data

Results flagged for a closer look

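Of the 106 genes named, each was tested for an MSC array that stood far from the other 3, since groups of 3 arrays are not tested. This test singled out 5, and chance alone gives about 1 in 20. Pax3 was at 5.07 in MSC array 3, against 4.04 to 4.18 in the other MSC arrays. Car2 was at 2.97 in MSC array 2, against 4.04 to 4.19. Enpp2 was at 3.61 in MSC array 3, against 3.19 to 3.26. Cpxm1 was at 3.89 in MSC array 4, against 4.50 to 4.57. Il6 was at 4.16 in MSC array 2, against 5.52 to 5.80.

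The difference from MSCs was not the same in ventral and dorsal SKPs for 886 genes and not the same in ventral and facial SKPs for 958 genes, by the limma tests between the SKP groups. In 4 of the genes named, ventral SKPs and another SKP group were called on opposite sides of MSCs. Hoxc9 (ventral minus facial 3.64) and Sema3d (4.49) were above MSCs in ventral SKPs and below them in facial SKPs. Col14a1 was above MSCs in ventral SKPs and below them in dorsal SKPs (ventral minus dorsal 3.41). Emb was below MSCs in ventral SKPs and above them in facial SKPs (ventral minus facial -5.16).

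The 13905 probe sets without a single gene symbol were not part of the gene results. Fitted on their own, 1491 of them (10.7%) were called between ventral SKPs and MSCs in limma at an adjusted p under 0.05, of which 764 were higher and 727 lower in ventral SKPs. Of these probe sets, 124 were higher and 44 lower in ventral SKPs than in MSCs, dorsal SKPs and facial SKPs alike.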

How the results depend on the processing

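No difference of a named gene that was called turned its direction in any alternative. Of 2438 values of named genes for ventral SKPs minus MSCs, 2375 stayed on their side of the threshold, 51 lost and 12 gained a call; these numbers were 2202, 85 and 45 of 2332 against dorsal SKPs, and 2210, 101 and 21 of 2332 against facial SKPs. Array weights raised the genes called to 1519 against dorsal SKPs and 2441 against facial SKPs, from 886 and 958. With these weights there were 754 ventral-distinct genes (543 higher, 211 lower), which included 338 of the 340, and 76 genes in the opposite pattern, against 29. With the replicate number as a block, 566 genes were called against dorsal SKPs and 11 were left in the opposite pattern, while the other counts stayed within 1.5 times (2848 against MSCs, 678 against facial SKPs, 240 ventral-distinct). The numbers gave no pairing, since same-numbered ventral arrays and arrays of other groups deviated together at r = -0.059 to 0.087, and the arrays numbered 1 did not correlate best with their own number. Leaving out each array in turn gave 2545 to 4072 genes against MSCs (1417 to 2166 higher, 1091 to 1906 lower), 327 to 937 against dorsal SKPs and 390 to 1416 against facial SKPs. It gave 146 to 436 ventral-distinct genes (124 to 337 higher, 20 to 99 lower), 10 to 45 in the opposite pattern, and 183 to 256 calls among list members, against 228. The cause of these shifts was not tested. The remaining alternatives kept these counts within 1.5 times, at 3120 to 4055 genes against MSCs, and among them leaving out MSC arrays 1 and 2 or 3 and 4 together was chosen after seeing the data. The count against MSCs was 3812 from the 7 arrays of ventral SKPs and MSCs alone. The number of arrays limits the precision, and signals near background have compressed differences.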
